A study of Mus musculus with 6 samples.

Results

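DNA methylation was measured in endothelial cells sorted from the lungs of wild-type mice by tagmentation-based whole-genome bisulfite sequencing, in which a transposase fragments and tags small amounts of DNA before bisulfite conversion. The groups were titled mAdu (3 samples, taken as the 8-month mice) and aged (3 samples, taken as the 18-month mice). No other genotype, allele or treatment distinguishes them in the labels, which do not say whether mice were pooled. The windows described here lie at the olfactory receptor (OR) genes. They are the 1-kb windows that overlap the annotated span, or the 2 kb on either side, of an autosomal protein-coding gene with an Olfr symbol. Of 1683697 windows with a value in all 6 samples, 3137 met this rule. They belong to 1043 of the 1104 autosomal OR genes, on 16 autosomes, and 6 further OR genes lie on X.

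OR genes are the largest gene family of the mouse and encode the G-protein-coupled receptors with which olfactory sensory neurons detect odorants. Each neuron of the nose expresses a single allele of a single OR gene, and the others are held silent in compact heterochromatin. The family has class I receptors, related to those of fish and gathered in a single cluster, and class II receptors, spread over many clusters. Most OR genes have an intronless coding sequence and promoters poor in CpG sites, and a few are known to be expressed outside the nose, including in blood vessels.

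The gene models reflect this compact structure. The median span was 950 bp, and 814 of the 940 models under 1500 bp had a length that is a multiple of 3, so many models hold coding sequence only and their annotated start need not be a transcription start. By family names, 122 genes were class I, 956 were class II and 26 had no class. Grouped with gaps of at most 1 Mb, 1095 genes formed 39 clusters and 9 stood alone. Values were sparse at these genes. The OR gene regions covered 7548 windows, of which 41.6% had a value in all 6 samples, against 78.6% for the regions of other protein-coding genes and 37.4% for vomeronasal receptor genes. As a result, 61 OR genes had no window, 525 had 1 or 2 and 518 had at least 3, and gene-level tests cover the 518. Olfr100, a gene without a window, is annotated at position 80755 of chromosome 17, ahead of the first listed window of that chromosome.

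The sequence before the annotated start shows how few CpG sites stand there. RefSeq start sequences for GRCm38.p6, the build whose coordinates equal mm10, were matched by gene identifier and chromosome for 938 OR genes. The 250 bases before the start are printed 5′ to 3′ along the gene, with CpG sites in capitals, for the genes with the lowest and highest levels and for 2 genes known outside the nose. The sequence of Olfr1565 (chr2:90321972-90322221, plus strand) holds 4 CpG sites, that of Olfr58 (chr9:19780033-19780282, plus strand) none and that of Olfr94 (chr17:37197967-37198216, minus strand) 2. These are the genes with the lowest mean methylation. No window with a value covers the start of Olfr58 or of Olfr585, printed next, and the stretch of Olfr94 lies mostly outside its start window.
Olfr1565: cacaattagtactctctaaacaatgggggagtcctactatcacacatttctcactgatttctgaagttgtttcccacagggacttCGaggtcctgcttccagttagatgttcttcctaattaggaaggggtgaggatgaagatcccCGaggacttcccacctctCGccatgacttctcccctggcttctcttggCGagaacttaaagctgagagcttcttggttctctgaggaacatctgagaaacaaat
Olfr58: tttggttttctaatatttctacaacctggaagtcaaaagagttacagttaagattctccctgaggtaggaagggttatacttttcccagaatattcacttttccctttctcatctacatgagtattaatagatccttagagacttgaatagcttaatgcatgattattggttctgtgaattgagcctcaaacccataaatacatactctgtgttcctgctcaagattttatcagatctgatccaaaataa
Olfr94: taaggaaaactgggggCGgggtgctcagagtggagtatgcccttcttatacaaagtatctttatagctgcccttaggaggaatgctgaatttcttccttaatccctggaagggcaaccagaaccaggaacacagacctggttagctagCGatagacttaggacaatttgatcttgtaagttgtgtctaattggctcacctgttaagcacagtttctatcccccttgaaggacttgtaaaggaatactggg
Among the genes with the highest mean methylation, the sequence of Olfr455 (chr6:42539021-42539270, minus strand) holds 3 CpG sites, that of Olfr457 (chr6:42472177-42472426, minus strand) 1 and that of Olfr585 (chr7:103097493-103097742, plus strand) none.
Olfr455: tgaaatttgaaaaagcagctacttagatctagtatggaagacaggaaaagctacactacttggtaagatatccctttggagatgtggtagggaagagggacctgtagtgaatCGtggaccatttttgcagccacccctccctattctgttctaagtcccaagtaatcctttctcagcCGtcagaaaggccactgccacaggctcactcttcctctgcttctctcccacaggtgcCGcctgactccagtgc
Olfr457: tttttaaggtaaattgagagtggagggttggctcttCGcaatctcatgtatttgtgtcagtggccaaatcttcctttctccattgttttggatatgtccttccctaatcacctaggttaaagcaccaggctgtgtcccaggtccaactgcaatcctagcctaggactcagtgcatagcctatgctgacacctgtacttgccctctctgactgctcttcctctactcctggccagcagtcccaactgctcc
Olfr585: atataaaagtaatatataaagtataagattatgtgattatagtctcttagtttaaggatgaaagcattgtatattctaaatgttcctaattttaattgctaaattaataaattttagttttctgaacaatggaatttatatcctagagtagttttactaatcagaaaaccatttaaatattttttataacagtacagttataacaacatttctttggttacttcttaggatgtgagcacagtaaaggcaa
The receptor Olfr16, expressed in sperm as well as the nose, has 2 CpG sites in this stretch (chr1:172956518-172956767, plus strand), and Olfr558, described in smooth muscle of vessels, has none (chr7:102702073-102702322, plus strand).
Olfr16: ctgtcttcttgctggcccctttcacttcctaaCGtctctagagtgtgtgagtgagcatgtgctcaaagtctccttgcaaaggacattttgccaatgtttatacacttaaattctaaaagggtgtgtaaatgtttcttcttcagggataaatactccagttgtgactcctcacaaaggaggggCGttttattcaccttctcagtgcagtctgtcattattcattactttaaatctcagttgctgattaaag
Olfr558: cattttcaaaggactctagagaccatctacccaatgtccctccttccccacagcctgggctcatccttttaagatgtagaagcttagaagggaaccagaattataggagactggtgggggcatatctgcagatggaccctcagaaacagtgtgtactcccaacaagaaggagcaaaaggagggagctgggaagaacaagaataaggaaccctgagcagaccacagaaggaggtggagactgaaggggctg
The CpG numbers of the low and the high genes overlapped. The GC content of these stretches ran from 23.6% at Olfr585 to 50% at Olfr558.

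The deposited values are the authors' window means, given here in percent, and neither coverage nor CpG number comes with them, so the depth behind a value is unknown. In DNA from many cells, an intermediate level cannot be split into the share of methylated cells and the level within each. The cell type was checked at marker genes. Start windows under 20% numbered 7 of 7 listed for endothelial markers (median 2.57%), 2 of 5 for epithelial (33.7%), 0 of 5 for haematopoietic (59.8%) and 2 of 4 for mesenchymal markers (31.9%). The share over all protein-coding genes other than OR genes was 68%. The endothelial markers Cdh5, Pecam1 and Sox17 had no start window in this count. Over the whole gene region, the 10 endothelial markers ran from 8.04% at Egfl7 to 78.1% at Emcn, with a median of 42.9%. The adhesion genes Pecam1 and Cdh5 stood at 40.5% and 38.6%, and Erg, Tek and Tie1 at 66.4%, 64% and 61.5%, where the medians of the other lists were 60.9% (epithelial), 69.7% (haematopoietic) and 66.4% (mesenchymal). Among olfactory neuron markers, the start windows of Cnga4, a subunit of the odour-gated channel, and Stoml3 stood at 74.5% and 74.4%, and that of Gng8 at 3.66%. The mean over all windows was 73.5% ± 0.152 (SD, n = 3) in mAdu and 73.4% ± 0.317 (SD, n = 3) in aged samples.

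OR windows were methylated at an intermediate to high level in every sample, and their place relative to other genes depended on whether windows or genes were weighted equally. Their mean was 71.5%, 71.3% and 70.8% in the mAdu samples and 70.7%, 70.3% and 71.5% in the aged samples. The group means were 71.2% ± 0.383 (SD, n = 3) and 70.8% ± 0.593 (SD, n = 3), and the samples of both ages overlapped. The difference, aged minus mAdu, was -0.351 points (exact two-sided permutation p = 0.4, where 3 against 3 samples cannot give less than 0.1). It was -0.687 on the gene span alone, -0.0949 without aged replicate 2 and -0.676 without aged replicate 3. Windows of other protein-coding genes averaged 73.7% ± 0.142 and 73.6% ± 0.26. Within each sample, OR windows were below them, with differences from -3.13 to -2.34 points and a mean of -2.66 ± 0.309 (SD over 6 samples, exact sign-flip permutation p = 0.0312, the smallest that 6 samples can give). This offset was -2.52 in mAdu and -2.8 in aged samples, which did not pass the exact permutation test between ages (difference -0.285, p = 0.2). The median window gave a wider gap of -7.58 points (exact sign-flip p = 0.0312), with medians of 72.6% and 80%. When each gene region counted once, the direction turned. The 518 OR genes with at least 3 windows averaged 71.1% and 19120 other genes 68.6%, a difference of 2.52 ± 0.226 points (exact sign-flip p = 0.0312, added after the values were seen). The medians over genes were nearly equal, with a difference of 0.145 ± 0.315 points (exact sign-flip p = 0.312).

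Vomeronasal receptor genes, the chemoreceptors of the pheromone-sensing organ and the family most like the OR genes in copy number and clustering, were lower still. Their 2009 windows averaged 65.5% ± 1.2 in mAdu and 64.5% ± 0.673 in aged samples. OR windows exceeded them in every sample, by 4.54 to 7.19 points and by 6.03 ± 1 on average (exact sign-flip p = 0.0312, n = 6). The 315 OR pseudogenes, relics of the same family, gave 71.2% ± 0.0879 and 70.9% ± 0.0385. The difference from the protein-coding OR genes was -0.0489 ± 0.497 points and changed sign between samples (exact sign-flip p = 0.75, n = 6, a comparison added after the values were seen). Windows between the OR genes of a cluster were lower than OR windows by 0.386 to 0.764 points in the 6 samples, with a mean of 0.561 ± 0.141 (exact sign-flip p = 0.0312, also added). That last difference no longer passed when gene regions were widened to 5 kb on either side, where it was 0.201 (exact p = 0.125).

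**Figure D1:**
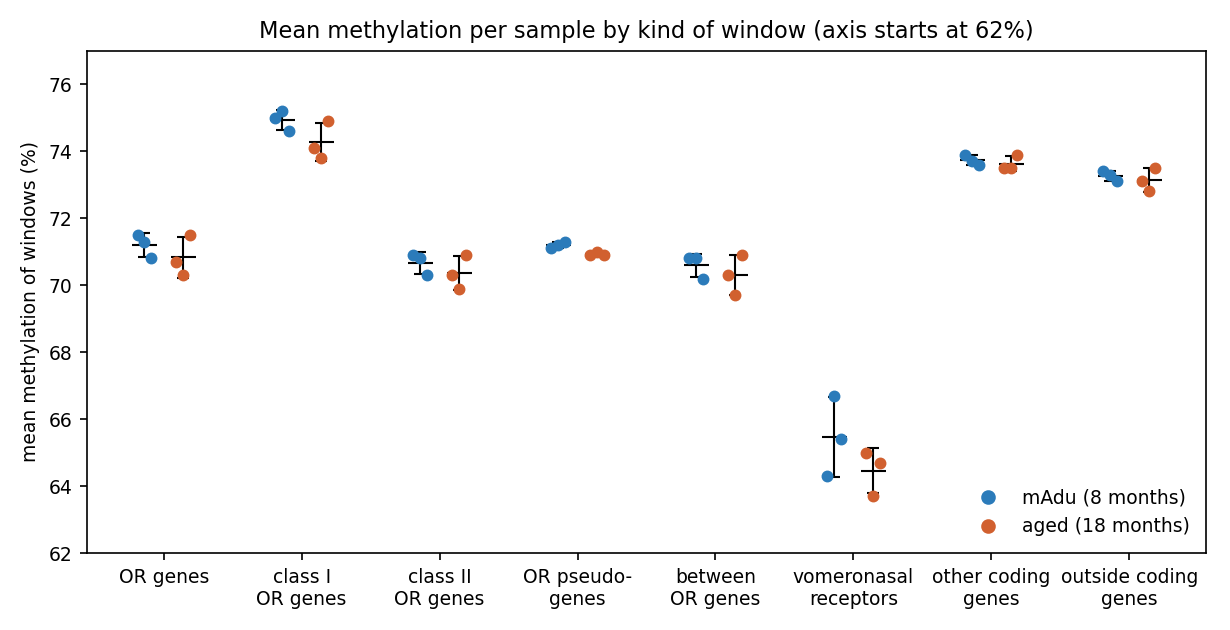
Mean methylation (%) of each sample by kind of window, with blue points for mAdu (8 months) and orange points for aged samples (18 months); horizontal bars are group means and vertical bars SD over 3 samples. OR windows sit near 71%, between vomeronasal receptor windows near 65% and other coding genes near 73.7%, and class I OR windows lie above class II in each group.

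Mean levels differed between the receptor classes, whose windows overlapped widely. The 5th and 95th percentiles over windows were 56.1% and 91.1% in class I and 50.6% and 86.8% in class II. Class I windows averaged 74.9% ± 0.317 in mAdu and 74.3% ± 0.584 in aged samples, while class II windows averaged 70.7% ± 0.311 and 70.4% ± 0.476. The class difference ran from 3.77 to 4.39 points over the samples, with a mean of 4.07 ± 0.22 (exact sign-flip p = 0.0312, n = 6). Nearly all class I genes share a single cluster on chromosome 7, so class and location cannot be told apart. Levels also differed with position in the gene region. Windows that touched an OR span averaged 72.3% in mAdu and 71.6% in aged samples, and windows in the flanks alone averaged 69.9% and 70%. The span exceeded the flanks by 2.15, 2.56 and 2.44 points in the mAdu samples and by 1.48, 1.4 and 2.11 points in the aged samples. The mean was 2.02 ± 0.482 (exact sign-flip p = 0.0312, n = 6). The samples of the ages did not overlap, where 10% of all single windows do not overlap either. The difference between ages was not tested, and 3 against 3 samples cannot give an exact p under 0.1.

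The distribution of OR windows was narrower than that of other genes, with smaller shares at both ends. The median OR window stood at 72.6% over the 6 samples, with 64.2% and 79.4% at the quartiles, and 82% of OR windows lay between 60% and 90%. Of other coding gene windows 65% did so, with quartiles of 67.5% and 88%. Windows under 20% made up 0.287% of OR windows, which is 9 windows, against 4.56% at other genes and 1.74% at vomeronasal receptor genes. Windows above 80% made up 23.1%, against 49.9% at other genes. This shape was not particular to the OR genes. OR pseudogene windows had 0.15% under 20%, 24.4% above 80% and 79.6% between 60% and 90%. For the windows between OR genes these shares were 0.908%, 24.5% and 78.8%. Counted within each sample, 0.829% ± 0.253 of OR windows were under 20% in mAdu and 0.914% ± 0.0802 in aged samples (exact permutation p = 0.9, n = 3 against 3). The share above 80% was 26.3% ± 0.82 and 25.1% ± 1.9 (exact permutation p = 0.4, n = 3 against 3), and that difference ran from -2.27 to -0.489 points with 1 sample left out. The share within 0.01% of 0 or of 100 was 0.701% and 0.531% (exact permutation p = 0.3).

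**Figure D2:**
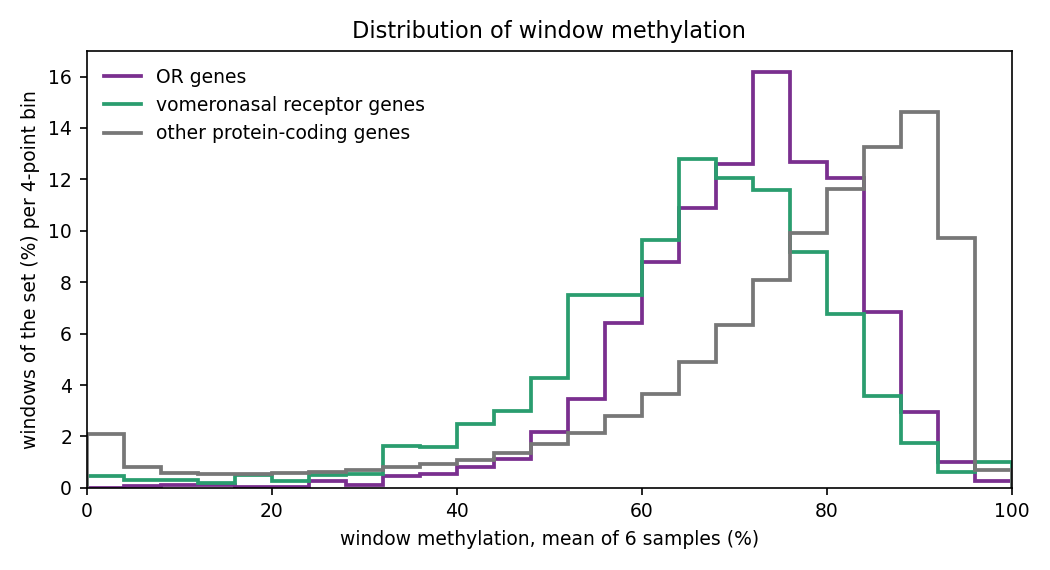
Share of windows (%) in bins of 4 points of methylation, taken as the mean of the 6 samples (%), for OR genes, vomeronasal receptor genes and other protein-coding genes. OR windows form a single peak around the median of 72.6% and have almost no windows under 20%, whereas other genes peak near 90% and have a second, small group close to 0.

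The low methylation found at the start of other genes was nearly absent from OR genes. Around the annotated start, the windows centred in the first 1 kb of OR genes averaged 73.1% ± 0.488 in mAdu and 72.8% ± 0.591 in aged samples, and those in the 1 kb before the start 69.7% ± 0.439 and 69.2% ± 1.2. For other genes the same positions averaged 25.9% and 32.5%. The single window that holds the start was listed for 510 OR genes (54.4%) and for 94% of other genes. Its level averaged 72% ± 0.56 over the 6 samples at OR genes and 22.5% ± 0.0467 at other genes. The difference of 49.5 ± 0.551 points was seen in all 6 samples (exact sign-flip p = 0.0312, added after the values were seen). Start windows under 20% numbered 2 of the 510 at OR genes (0.392%), those of Olfr94 and Olfr95, and 9920 at other genes (68%). Between ages, OR start windows differed by -0.37 points (exact permutation p = 0.5, n = 3 against 3).

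OR starts held few CpG sites, and the 300 bases from 250 before to 50 after the start were compared by CpG number. The median was 1 site at OR genes and 15 at other genes, 33.7% of OR starts had none against 3.23%, and the median GC content was 35% against 57.7%. The observed over expected CpG ratio had a median of 0.106 against 0.631. Among starts with no CpG in this stretch, OR start windows averaged 72.3% and others 71.2%, a difference of 1.15 ± 0.679 points. The difference grew to 4.59 with 1 site, 8.37 with 2 and 16.2 ± 0.416 with 3 to 5. With 6 or more sites, 19 OR genes averaged 72.8% and 11232 other genes 11%, a difference of 61.8 ± 4.47 points, but the OR starts held 6 to 13 sites (median 6) and the others a median of 21. Set against other starts with exactly the same number of sites, which averaged 40.4%, the same 19 OR starts were 32.4 ± 4.36 points higher. Each of these 6 comparisons, added after the values were seen, had an exact sign-flip p of 0.0312 over 6 samples, also after Benjamini-Hochberg adjustment. That test covers variation between the 6 samples and not between genes. For starts without CpG, the SD over genes was 11.2 points at 94 OR starts and 15.4 points at 191 others. The difference of 1.15 points there was not tested over genes. The other genes with few CpG sites are a minority of their set, and what else they share was not tested.

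The 19 OR starts with 6 or more CpG sites had a median of 75.4% and ran from 33.1% at Olfr1565 to 94.2% at Olfr281. The samples of Olfr1565 ran from 6.09e-23% to 99.8% and those of Olfr1506 from 3.59e-45% to 100%. The start of Olfr212, with 13 sites the richest, stood at 90%, 91.3% and 92.7% in mAdu and 91.9%, 90.7% and 91.3% in aged samples. Olfr281 (6 sites) had 94.2% on average and Olfr283 (9 sites) 85.1%, both in the chromosome 15 cluster. Olfr750 (11 sites) had 56.1%. The starts named here were chosen after their values were seen. An ATG stood at the annotated start of 72.5% of OR genes and 5.17% of other genes, which again marks models that begin at the coding sequence. Among the 19, Olfr281 and Olfr414 had one and Olfr212 and Olfr283 had none. Starts of equal CpG number were therefore not matched for the kind of start.

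**Figure D3:**
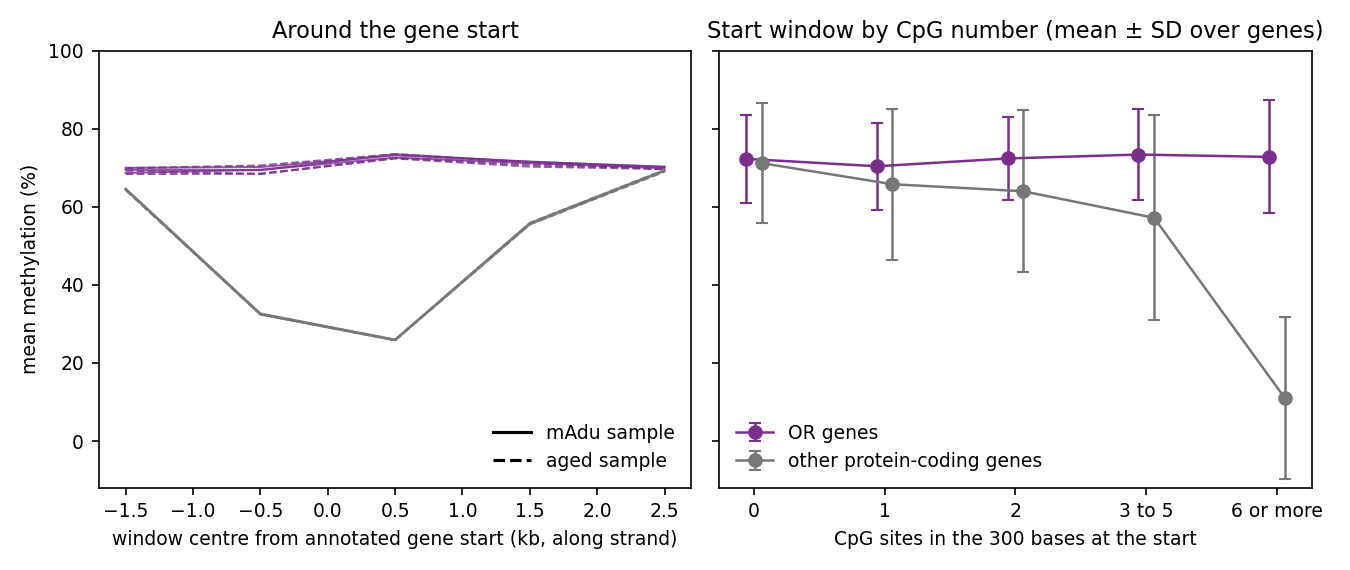
Left, mean methylation (%) of windows by distance of the window centre from the annotated start (kb), 1 line per sample (solid mAdu, dashed aged), OR genes in purple and other protein-coding genes in grey. Right, level of the start window (mean ± SD over genes) by the number of CpG sites in 300 bases, where OR genes stay near 72% and other genes, which there hold more sites each, are at 11% with 6 or more.

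The 9 OR windows under 20% on average differed between samples by 2.32 to 20.9 points, and none held an extreme value. The lowest lay over Olfr94 on chromosome 17 (chr17:37197001-37198000) at 5.21%, 3.43% and 5.75% in mAdu and 5%, 5.37% and 4.15% in aged samples. It is 900 bp from Ubd, which encodes an ubiquitin-like protein induced by interferon, and lies in the flanking region of that gene too. On the same chromosome, windows next to Olfr90 (chr17:37083001-37084000) and over Olfr95 (chr17:37211001-37212000) averaged 10.1% and 11.7%. A window 1312 bp from Olfr281 (chr15:98454001-98455000) averaged 6.54%, with 7.99% in mAdu and 5.09% in aged samples. The fifth and the sixth were over Olfr78 (chr7:102757001-102758000, 11.9%) and 263 bp from Olfr222 (chr11:59572001-59573000, 13.4%). The remaining windows lay near Olfr211 (13.4%), Olfr1033 (15.2%) and Olfr605 (18.8%). Thus 4 of the 9 touched an OR span and 5 lay in the flanks.

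Olfr78 and Olfr558 are the class I receptors best known in blood vessels, where Olfr78 responds to short-chain fatty acids and takes part in control of blood pressure. Over the 13 windows of Olfr78, methylation was 64.7%, 65.5% and 63.2% in mAdu and 63.7%, 60.9% and 62.6% in aged samples (aged minus mAdu -2.01 points, limma SE 0.937, adjusted p = 0.969). Within it, the low window measured 7.44%, 19.4% and 9.38% in mAdu and 9.55%, 14.9% and 10.8% in aged samples. Its neighbour at chr7:102756001-102757000 averaged 36% and the other 11 windows between 47% and 85.2%. The groups overlapped in the low window. They did not overlap in 2 of the 13 windows, where 10% of all windows do not. These were chr7:102759001-102760000, with 85.8%, 86.1% and 80.5% in mAdu and 71.5%, 75.2% and 72% in aged samples, and chr7:102753001-102754000, with 74.1%, 78.9% and 76.5% and 71.4%, 70.1% and 73%. Neither passed the test over all windows. Olfr558, 11 windows long, averaged 74% ± 0.563 in mAdu and 73.2% ± 0.854 in aged samples and held no window under 20%.

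Of the other receptors reported outside the nose, Olfr16 had 62.3% ± 2.85 in mAdu and 62.7% ± 1 in aged samples over 6 windows, and its start window averaged 44.5%. Olfr544, described in pancreas and fat, had 83.8% ± 0.724 and 83.9% ± 1.22. Olfr1393, a kidney receptor, had 74.3% ± 0.956 and 74.1% ± 1.14 over 32 windows. Olfr2, described in vascular macrophages, had 2 windows with 70.4% ± 3.55 and 64.2% ± 5.51 and was not tested. The receptors much studied in the nose had 2 windows each, with group means of 74% and 68.6% for Olfr17, 48.4% and 50.7% for Olfr160, and 80.6% and 80.2% for Olfr73. Olfr151 is annotated as a transcribed pseudogene and was not included.

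Across the 518 OR genes with at least 3 windows, the median level was 71.6%, against 71.5% over all other genes, and the 5th and 95th percentiles 59.4% and 81.4%. The spread over genes was an SD of 6.81 points, against 12.8 points over all other genes, and 92.5% of OR genes lay between 60% and 85% against 81.4% of the others. The number below 50% was 3. Olfr58 on chromosome 9 had 42.1%, 46.9% and 45.7% in mAdu and 48.6%, 51.3% and 43.7% in aged samples. Olfr94 averaged 49%, carried by the low window described above. The values of Olfr1565 are treated below, with the variable windows. Next came Olfr402 (51.3%), Olfr1368 (53.7%), Olfr518 (54%), Olfr90 (54.2%) and Olfr211 (54.4%). The most methylated was Olfr455 on chromosome 6, with 92.8%, 91.6% and 90.9% in mAdu and 91.7%, 92.2% and 92.8% in aged samples. Its neighbour Olfr457 averaged 88.9%, the class I genes Olfr585, Olfr692 and Olfr553 averaged 88.7%, 88.6% and 87.2%, and Olfr987, Olfr1388 and Olfr283 averaged 88.4%, 86.8% and 86.1%. Such genes had 3 to 6 windows each.

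Clusters differed in level by more than samples did. The 29 clusters with at least 20 windows ran from 65.4% to 76.2%, with a median of 70.3% and an SD of 3 points over clusters, whereas the SD over the 6 samples of a cluster had a median of 0.751 points. The lowest was the cluster from Olfr24 to Olfr18 on chromosome 9 (35 genes, 89 windows), followed by Olfr1275 to Olfr1318 (66%) and Olfr338 to Olfr368 (66.2%) on chromosome 2 and Olfr1416 to Olfr12 (66.4%) on chromosome 1. The highest was Olfr288 to Olfr279 on chromosome 15 (9 genes, 82 windows) at 76.2%. Olfr1396 to Olfr1380 on chromosome 11 (76.1%), Olfr1370 to Olfr1359 on chromosome 13 (74.9%) and the class I cluster Olfr543 to Olfr692 on chromosome 7 (74.8%) came next, and the samples of these last 3 overlapped. The class I cluster held 126 genes, 120 of them class I, and 423 windows. The largest, Olfr987 to Olfr1274 on chromosome 2 with 222 genes and 493 windows, averaged 71.4% ± 1.44 in mAdu and 71.5% ± 1.13 in aged samples. Across the 29 clusters, level went with the number of listed windows per gene (Pearson r = 0.547, Spearman rho = 0.57), a description of clusters that share the same 6 libraries. The cluster with the widest spread was Olfr164 to Olfr171 on chromosome 16, at 76.1%, 73.4% and 60.5% in mAdu and 70.5%, 70.4% and 65% in aged samples.

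With age, 30 of the 39 clusters were lower and 9 higher in aged samples, and 22 to 29 were lower with 1 sample left out. The share of other intervals lower in aged samples was not counted. By gene region, 46.3% of OR genes and 47.3% of all genes were higher in aged samples. The clusters share the same 6 libraries, whose mean over all windows was 73.5% in mAdu and 73.4% in aged samples. No cluster could pass the exact permutation test, since 3 against 3 samples cannot give a p under 0.1 (adjusted p over clusters from 0.65 to 1). The groups did not overlap in 6 clusters, 15.4% of the 39, beside 9.46% of 24009 intervals of 100 kb over the autosomes. The class I cluster overlapped, at 75.1% ± 0.377 and 74.5% ± 0.537. Of the 6, the Olfr24 to Olfr18 cluster had 65.2%, 66.7% and 67.1% in mAdu and 64%, 64.6% and 65% in aged samples. Without its 8 windows that ranged over more than 50 points between samples, the groups overlapped and the difference was 0.0162 points. Olfr172 to Olfr209 on chromosome 16 had 72.8%, 70.7% and 70.9% against 69.8%, 67.5% and 69.5%, a difference of -2.54 points in the group means. Without 8 such windows, among them those at Olfr183 and Olfr196, the groups overlapped and the difference was 0.148 points. In the opposite direction, Olfr310 to Olfr292 on chromosome 7 had 65.9%, 68.4% and 67.2% against 69.8%, 69.4% and 69.9%. The difference of 2.55 points there was 1.29 without a single window near Olfr294, and the groups still did not overlap. The other 3 were Olfr1358 to Olfr57 and Olfr20 to Olfr412, both lower, and Olfr522 to Olfr541, higher, none of which held such a window. Without all such windows, a setting added after the values were seen, 28 of 39 clusters were lower and the groups did not overlap in 4.

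**Figure D4:**
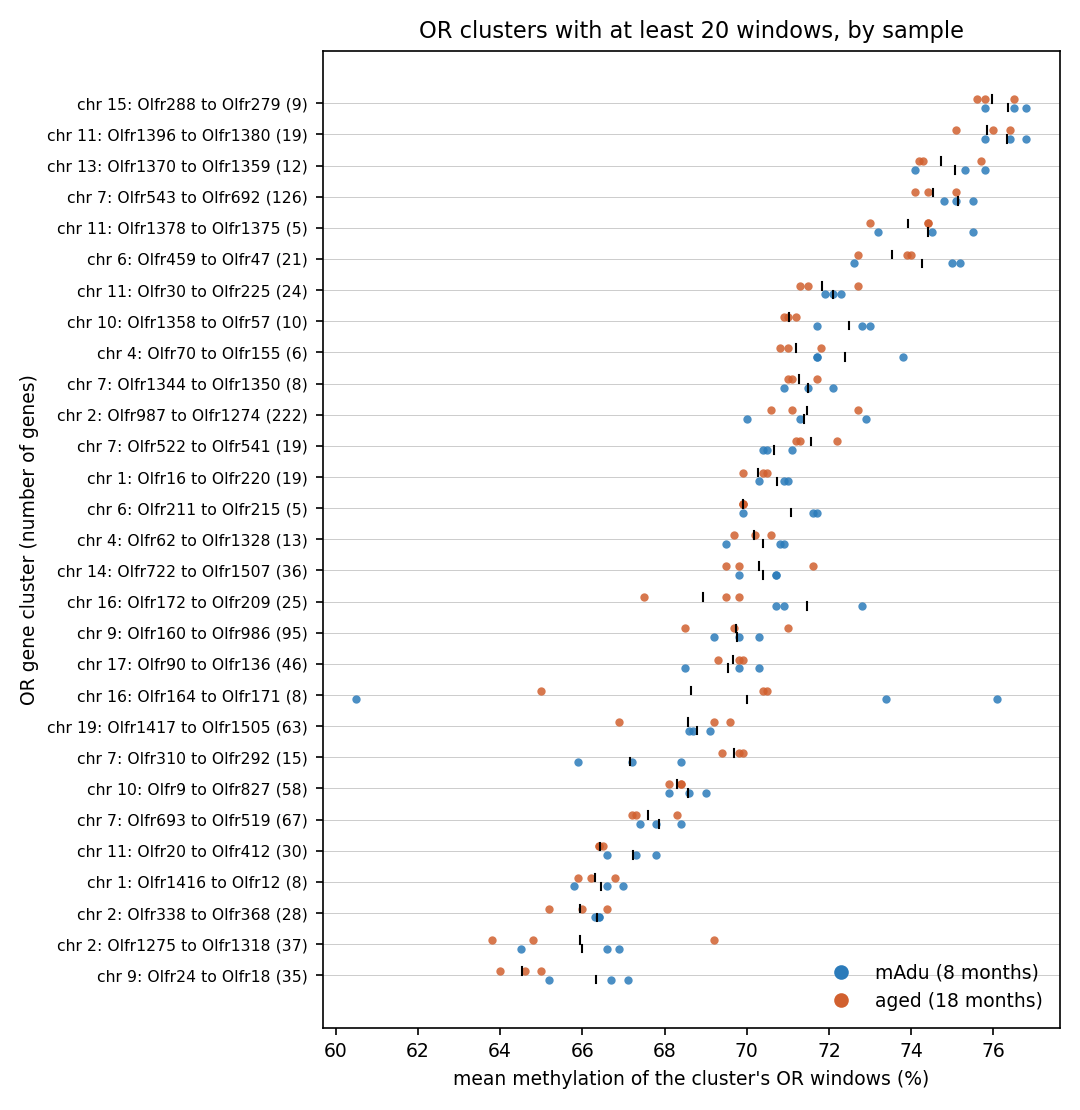
Mean methylation (%) of the OR windows of each of the 29 clusters with at least 20 windows, blue for mAdu and orange for aged samples, short black bars for group means, and the number of genes in brackets. Clusters spread from 65.4% to 76.2%, and the samples of the Olfr164 to Olfr171 cluster spread most, from 60.5% to 76.1%.

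By chromosome, with windows weighted equally, OR windows lay below the other gene windows of the same autosome on 12 of 16 and above on 4. The gap was -5.31 points on chromosome 1, -5.06 on 9, -4.83 on 10 and -4.79 on 16, in 6 of 6 samples each. On chromosome 15 the OR windows were 2.69 points higher and on chromosome 7 they were 1.02 points higher, again in 6 of 6 samples, while chromosomes 11 and 3 differed by 0.131 and 0.0402 points and the sign varied between samples. Chromosome 2, with 287 OR genes, averaged 70.3% ± 1.13 in mAdu and 70.2% ± 1.27 in aged samples. On 13 of 16 autosomes the aged mean was below the mAdu mean, and on 11 to 15 with 1 sample left out. The same count for other gene windows was not made. The exact permutation test gave p from 0.1 to 1 and adjusted p from 0.889 to 1. No autosome could pass it, since 3 against 3 samples cannot give less than 0.1. The widest age difference was on chromosome 16, with 73.3%, 71.1% and 68.7% in mAdu and 69.9%, 68.2% and 68.6% in aged samples, where the groups overlapped. Without the 14 windows there that ranged over more than 50 points, the difference of -2.11 points was 0.246 points.

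Families, taken from the older MOR names, differed within a chromosome too. Of the families with at least 10 genes, MOR248 on chromosome 2 was lowest at 64.1% ± 2.62 (SD over 6 samples) and MOR202 followed at 64.7% ± 1.01. The highest were the class I family MOR31 at 74.7% ± 1.06 and MOR174, also on chromosome 2, at 74.7% ± 2.09. These names follow sequence similarity and members of a family are often neighbours, so windows of a family are not independent. By distance from the nearest other protein-coding gene, OR windows averaged 70.5% within 10 kb, 72.4% from 10 to 50 kb, 71% from 50 to 200 kb and 69.9% beyond 200 kb.

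No OR window passed the test for age. In limma over all windows, 0 of 3137 had an adjusted p under 0.05 (smallest 0.493), beside 0.0211% of all windows. At an unadjusted p under 0.05 there were 162, or 5.16%, beside 4.67% of all windows, 63 higher and 99 lower in aged samples. The groups did not overlap in 312 windows (9.95%, beside 10% of all windows), 122 higher and 190 lower, where all windows had 4.76% higher and 5.28% lower. The 95% interval of the age difference was within 5 points of 0 at 2.04% of OR windows and 8.57% of all windows. Without aged replicate 1, 1 OR window passed, over Olfr183 (chr16:58979001-58980000), beside 0.0593% of all windows. Without aged replicate 3, 2 passed, near Olfr1095 (chr2:86848001-86849000) and over Olfr18 (chr9:20323001-20324000), beside 0.0494% of all windows. All 3 are windows whose values vary widely within a group. The Olfr183 window, for example, had 87.5%, 87.5% and 93.7% in mAdu and 76%, 6.25% and 6.25e-55% in aged samples.

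At the level of genes, 0 of 518 OR genes passed limma at an adjusted p of 0.05, as did 0% of 19638 genes tested. The smallest adjusted p was 0.614. There were 52 OR genes (10%) with an unadjusted p under 0.05, 19 higher and 33 lower, beside 4.78% of all genes. OR genes have few windows, a median of 4 against 21, and among other genes with at most 6 windows the share was 10.4%. The groups did not overlap in 48 OR genes (9.27%, beside 9.89% of all genes), 16 higher and 32 lower, where all genes had 4.55% higher and 5.34% lower. The median difference over OR genes was -0.176 points and over all genes -0.0404. At 42.9% of OR genes the whole 95% interval was closer than 5 points to 0, as it was at 90.3% of all genes, so differences of a few points were often not detectable at OR genes.

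The genes with the smallest p are given as values, since none passed. Olfr684, a class I gene on chromosome 7, had 74.9%, 77.9% and 76.2% in mAdu and 70.6%, 68.7% and 69.3% in aged samples (difference -6.77, limma SE 0.904, adjusted p = 0.614). Olfr1428 on chromosome 19, with 7 windows, had 77.7%, 78% and 77.5% against 75%, 75% and 76% (difference -2.43, SE 0.406, adjusted p = 0.759). The group means of Olfr311 were 70.1% and 66.7%, of Olfr214 78.6% and 72.7%, and of Olfr1134 72.9% and 67.6%. In the other direction, Olfr1254 on chromosome 2 had 69%, 68.5% and 70.4% against 72.7%, 73.5% and 71.6% (adjusted p = 0.925). Olfr1212 had 65.7% and 70.8%, Olfr324 75.5% and 78.7%, Olfr1220 78.3% and 81.4%, and Olfr1564 61.6% and 66.9%. In each of these 10 genes the groups did not overlap, which the choice by smallest p favours. The same held for 9.27% of OR genes and 9.89% of all genes.

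**Figure D5:**
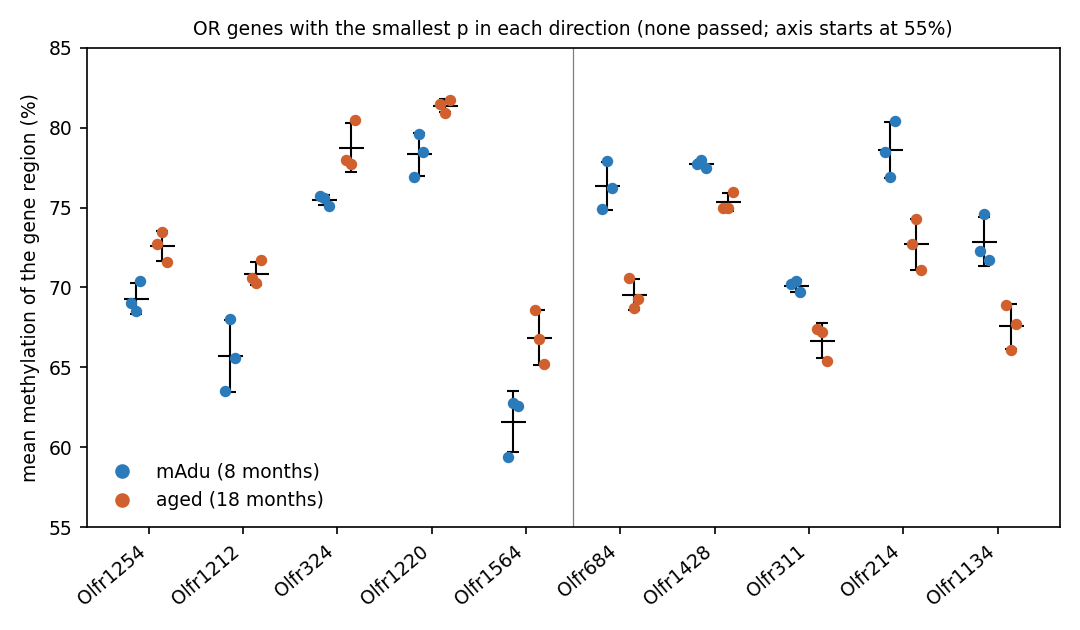
Mean methylation (%) of the gene region in each sample for the 5 OR genes with the smallest p in each direction, those higher in aged samples on the left and lower on the right; bars are mean ± SD of 3 samples. The samples of the groups do not overlap in any of the 10, which the choice by smallest p favours, beside 9.89% of all genes. None had an adjusted p under 0.05.

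A small number of OR windows differed greatly between single samples. The range over the 6 samples exceeded 50 points in 59 OR windows (1.88%), against 1.4% of other gene windows, 7.23% of the windows between OR genes and 13.4% of vomeronasal receptor windows. They formed 23 runs in 12 clusters, 19 of the windows lay on chromosome 2, and 39 held an extreme value. Olfr1565 is the clearest case. All 6 of its windows held extreme values, and their mean was 98.2% in mAdu replicate 1 and 99.7% in aged replicate 3 but below 0.01% in the other 4 samples. The switch was not confined to the gene, since from chr2:90310001-90311000 to chr2:90349001-90350000 each listed window had at least 1 sample under 0.01%. At a distance of 6222 bp from the gene, in chr2:90315001-90316000, aged replicate 3 was at 100% and mAdu replicate 1 at 2.92e-69%. Values this small are not plain ratios of read counts. Coverage and the number of CpG sites behind these windows were not given, and their part in the result was not tested. Olfr1506 in the same cluster had 100% in mAdu replicates 1 and 2 and 3.84e-38% in mAdu replicate 3 over 5 windows, and the aged samples had 36.1%, 99.8% and 33%. Of the 23 runs, only the one at Olfr183 kept the ages apart, at 79.7%, 95.1% and 90.2% in mAdu and 61.3%, 28.6% and 39.1% in aged samples. Among the 59 windows the groups did not overlap in 5, where 10% of all windows do not overlap. These runs were chosen after their values were seen.

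The other genes of the olfactory pathway were described from a list of 31, of which 16 were higher and 15 lower in aged samples and 0 passed (limma, smallest adjusted p = 0.925). Among genes of odorant signal transduction, such as Gnal and Adcy3, which couple receptors to cyclic AMP, 5 were higher and 6 lower. The receptor chaperones Rtp1, Rtp2 and Reep1 were all lower in group mean. Rtp1 had 77.2%, 78.1% and 77% in mAdu and 75.5%, 75.8% and 76% in aged samples, with an adjusted p of 0.925. Among the regulators of OR choice and silencing, such as Lhx2, Ldb1, Kdm1a and the HP1 protein genes Cbx1, Cbx3 and Cbx5, 11 were higher and 6 lower. Unlike the OR genes, all 16 regulators with a listed start window were under 20% there, with a median of 0.767%. So were 6 of 9 transduction genes, beside 68% of all protein-coding genes other than OR genes.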

How the data were processed

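Genomic DNA (30 ng per sample) from sorted lung endothelial cells was sequenced as 100 bp paired reads, per the labels' protocols. BWA 0.7.8 and the build mm10 are named in the submitters' processing notes. How CpG calls were filtered, smoothed and averaged is not given in the sources used here. Per the deposited table, values give the mean methylation of each sample as a fraction (0 to 1) in 1684140 autosomal windows of 1000 bp, and the fractions were multiplied by 100 here. Coverage is not in the columns used, so depth is unknown and no counting interval is given. Each window was weighted equally.

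Gene positions and start sequences came from RefSeq tables of GRCm38.p6. Class I was taken from the families MOR1 to MOR42 in the gene synonyms, because the table holds Olfr symbols and the planned Or51 to Or56 names were nearly absent from it. Windows (1683697) and gene regions with at least 3 windows (19638) were fitted on percent values (limma 3.58.1, R 4.3.3) with age group alone in the model and a mean-variance trend, and p-values were adjusted by Benjamini-Hochberg (threshold 0.05). Single values per sample were compared by exact two-sided permutation (3 against 3, smallest p 0.1) or, within samples, by exact two-sided sign flips (6 samples, smallest p 0.0312). The labels do not tie samples to animals, so p-values reflect only how much these samples vary, possibly for technical reasons. The series text names the ages without tying them to titles.

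Named genes were the 8 lowest and 8 highest of the tested OR genes, the 5 with the smallest p in each direction where fewer passed, and 10 fixed receptors. Named clusters were the 4 lowest, the 4 highest and the largest, and named windows the 6 lowest. The sequences printed were the first 3 at each end that had one and 2 fixed receptors. The OR genes, gene lists and tests were chosen with earlier results of these data known. Comparisons with pseudogenes, with windows between OR genes, at gene starts (also at equal CpG number) and over gene regions, and the setting without windows ranging over 50 points, were added after the values were seen.

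Same-numbered samples of the groups had correlated deviations of -0.0951, 0.0303 and 0.00755 over OR windows, so replicate numbers were not used as pairs. Alternatives changed the flank, the window set, the scale, the variance trend, the cluster gap, the weighting of windows and genes, the replicate block and the samples.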

Additional observations from a re-analysis of the deposited data

How the results depend on the processing

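Of 180 alternatives for the compared levels and counts, 125 were rated the same. For differences within samples, this meant the same direction and the same side of the threshold. For age differences, whose exact test cannot pass, it meant the same direction and a shift smaller than the SD within groups. For counts, it meant the same or a similar number. With 1 sample left out, 42 kept their direction but could not pass, since the smallest exact p over 5 samples is 0.0625. Their ranges were -2.72 to -2.57 for OR minus other gene windows, 5.8 to 6.33 for OR minus vomeronasal windows, -9.03 to -8.48 for vomeronasal minus other gene windows, 4 to 4.13 between the classes, 1.92 to 2.15 for span minus flanks, 0.521 to 0.596 for OR minus between-gene windows and 49.4 to 49.7 for start windows. OR minus other genes changed sign when gene regions counted once, to 2.52 by mean and 0.145 by median. OR minus pseudogene windows changed sign without extreme-value windows (0.0078), on the span alone (1.01), and when 1 sample was left out (from -0.176 to 0.0716). The share of OR windows under 20%, aged minus mAdu, was 0.085 points, -0.0486 with 5 kb flanks, and from -0.0584 to 0.181 with 1 sample left out. On the span alone, the age difference of the OR offset moved to -0.622 and that of the extreme-value share to -0.359. OR minus between-gene windows was 0.201 with 5 kb flanks. With 1 sample left out, the age difference ran from -0.676 to -0.0949 for the OR level and from -0.461 to -0.122 for the offset, and 0 to 2 OR windows passed. The cause of these changes was not tested. With the replicate block, the OR level difference stayed at -0.351 and the offset difference at -0.285 (exact p = 0.5 each), and 0 windows, OR genes and pathway genes passed. For the 31 named genes, 346 alternatives gave adjusted p from 0.381 to 1. The gap of 200 kb gave 47 clusters, 35 lower in aged samples. Depth limits every value and is unknown.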
